A study of Mus musculus with 3 samples.

Results

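The genes followed here supply phosphate, or free it, where mineral forms: Alpl (tissue-nonspecific alkaline phosphatase), Phospho1 (a phosphatase that acts on phosphocholine and phosphoethanolamine), Enpp1 (an ectoenzyme that makes pyrophosphate), Slc20a1 and Slc20a2 (the sodium-phosphate importers Pit1 and Pit2), Slc34a2 (the sodium-phosphate importer NaPi-IIb) and Xpr1 (a phosphate exporter). They were picked by symbol for these known roles, and no threshold on a measured value entered the rule. The choice was made with earlier results of these data known, so shares among the 7 describe these libraries only. All 7 were among the 20937 genes of the count table, and all 7 passed the filter on low counts that kept 18702 genes for testing. RNAseq was run on mice aged 4 weeks (P28), on whole enamel organs dissected from the incisors, with 1 library from each of 3 genotypes. Stim1 cKO was AmelX-iCre+; Stim1 fl/fl, Stim1 HT was AmelX-iCre+; Stim1 fl/wt and Stim1 Ctrl was AmelX-iCre-; Stim1 fl/fl, called cKO, HT and Ctrl below, so floxed Stim1 was carried by every genotype, Stim1 Ctrl included. Per the methods male mice were taken for analysis, and the AmelX-iCre transgene, driven by the amelogenin promoter, deletes in ameloblasts from the secretory stage on, not in the other cells of the organ. The study compared Stim1 cKO with Stim1 HT and Stim1 Ctrl grouped as controls. The number of mice behind a library was not given in the sources used here, and with no replicate of any genotype the only spread between samples is that between the 2 controls.

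Enamel crystals are calcium phosphate, so the enamel organ has to deliver phosphate as well as calcium. Pyrophosphate, made outside cells by Enpp1 and exported by Ank, blocks crystal growth, and alkaline phosphatase cleaves it into phosphate. Alkaline phosphatase is known to be strong in the stratum intermedium and papillary layer, the cell layers next to ameloblasts, whereas Phospho1 is best known from bone, cartilage and dentin, where it works inside matrix vesicles. Importers of the SLC20 and SLC34 families bring phosphate into cells together with sodium, and Xpr1 is the known exporter.

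The sequence just upstream of the annotated start is shown for the 5 members with the largest fold difference between cKO and the controls that had a window, to let their base composition be compared. Each is the 250 bases before a RefSeq start (GRCm38.p6), 5′ to 3′ on the strand of the gene, with capitals for the GC box (GGGCGG, on either strand) and the E box (CACGTG), where matches may overlap.
Slc34a2, chr5:53049103-53049352, plus strand: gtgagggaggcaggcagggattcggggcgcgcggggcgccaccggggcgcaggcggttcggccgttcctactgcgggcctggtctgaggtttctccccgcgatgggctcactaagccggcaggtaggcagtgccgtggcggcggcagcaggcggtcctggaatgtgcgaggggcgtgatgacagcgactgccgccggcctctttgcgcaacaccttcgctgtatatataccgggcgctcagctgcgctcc
Slc20a1, chr2:129198523-129198772, plus strand: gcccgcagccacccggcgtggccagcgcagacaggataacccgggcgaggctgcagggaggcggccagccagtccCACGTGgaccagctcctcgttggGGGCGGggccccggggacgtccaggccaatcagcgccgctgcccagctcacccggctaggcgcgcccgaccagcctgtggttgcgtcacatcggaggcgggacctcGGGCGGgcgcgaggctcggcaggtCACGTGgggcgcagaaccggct
Xpr1, chr1:155417445-155417694, minus strand: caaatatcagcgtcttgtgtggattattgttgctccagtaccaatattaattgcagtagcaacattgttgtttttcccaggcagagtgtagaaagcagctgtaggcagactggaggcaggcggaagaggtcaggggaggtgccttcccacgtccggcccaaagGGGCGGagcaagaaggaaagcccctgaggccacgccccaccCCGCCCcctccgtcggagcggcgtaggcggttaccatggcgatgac
Alpl, chr4:137796385-137796634, minus strand: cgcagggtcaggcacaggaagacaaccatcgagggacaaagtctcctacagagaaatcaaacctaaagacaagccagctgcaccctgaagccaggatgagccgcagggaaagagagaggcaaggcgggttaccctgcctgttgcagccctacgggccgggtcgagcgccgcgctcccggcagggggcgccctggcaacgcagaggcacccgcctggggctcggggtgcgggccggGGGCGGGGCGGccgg
Phospho1, chr11:95824250-95824499, plus strand: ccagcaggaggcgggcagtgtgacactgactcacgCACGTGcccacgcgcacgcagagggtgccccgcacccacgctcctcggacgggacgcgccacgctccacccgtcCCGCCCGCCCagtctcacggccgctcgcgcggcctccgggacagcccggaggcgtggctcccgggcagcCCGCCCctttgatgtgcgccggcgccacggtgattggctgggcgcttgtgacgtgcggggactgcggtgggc
The Slc34a2 window held neither motif. That of Slc20a1 held 2 GC boxes and 2 E boxes, and that of Phospho1 held 3 GC boxes and 1 E box. Xpr1 and the first Alpl window held 2 GC boxes each and no E box. Over 32851 windows of the same length a GC box was found in 32.7% and an E box in 6.02%. The calcineurin-dependent factor NFAT has the core GGAAA (searched on both strands), which was found in 55.6% of windows, 2 times in that of Xpr1, 1 time in the first of Alpl and in none of the other 3 shown. The TATA box string TATAAA (on either strand), found in 12.4% of windows, was in none of the 5. Only this exact string was counted, and the Slc34a2 window holds tatatata near its end. GC content of the shown windows ran from 57.6% for Xpr1 to 75.6% for Phospho1, against a median of 52.4%. These motifs were picked after the sequences had been read, and a match describes letters only. RefSeq gave 6 of the 7 members a window. Alpl and Slc20a1 had 2 starts each, and Slc20a2 had none. For Slc34a2 the RefSeq start lies downstream of the GENCODE start, so its window falls inside the GENCODE span of the gene (53038081 to 53071664).

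The libraries held 20216507 to 28265960 counts. Stim1, the targeted gene, had 1763 counts in cKO, 2536 in HT and 4797 in Ctrl, which is 72.8, 129 and 186 CPM (scaled by library size and the trimmed mean of M-values, TMM), so its order followed the genotypes, with a log2 fold change of -1.11 in the quasi-likelihood test of edgeR (adjusted p 0.106). Stim1 was counted over the whole gene and over all cells of the organ, those without Cre activity included, so this is a partial check of the labels. The labels give ameloblasts as the cell type although the whole organ was taken. The cKO library stood apart in genes of other tissues. Photoreceptor markers summed to 863 CPM in it against 0.710 in HT and 1.09 in Ctrl, lacrimal and orbital gland markers to 2607 against 21.8 and 134, neuron markers to 637 against 131 and 94.7, and lens markers to 189 against 9.95 and 9.67. Secretory ameloblast markers summed lower, at 4846 against 31952 and 23896, as did those of skeletal muscle (3248 against 16401 and 18882), osteoclasts (277 against 1199 and 1219) and cartilage (84.7 against 494 and 725). By gene, 4 of 5 secretory, 6 of 7 muscle, 6 of 6 osteoclast and 3 of 5 cartilage markers lay below both controls. Dspp, Myh4 and Matn1 of these lists lay above both, and Col10a1 lay between. Of the raised lists, 4 of 5 gland and 4 of 5 neuron markers lay above both. Over all genes tested, 43.6% lay above both and 42.1% below both. Fibroblast, macrophage and erythroid markers lay below both controls for 6 of 6, 4 of 4 and 4 of 4 genes. Neutrophil markers did so for 5 of 6, with a sum of 1490.2 against 553 and 263 because of the remaining gene, Ltf (lactoferrin, 34882 counts against 7054 and 2872, named after its values were seen). Of 6 general enamel epithelium markers 5 lay above both controls, with sums of 2928 against 1947 and 1793. cKO is this library alone, so no value below can be given without it, and the part of these tissues in the results was not tested. In bulk RNA, fewer cells of a type and less RNA per cell cannot be told apart.

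None of the 7 genes was called at the thresholds of the study (adjusted p under 0.01 and over 2-fold), by edgeR or by DESeq2. Over all genes tested, edgeR called 14 (0.0749%), all higher in cKO, and DESeq2 called 1987 (10.6%). At an unadjusted p under 0.05 in edgeR there were 4 of the 7, Alpl, Phospho1, Slc20a1 and Slc34a2, against 31.9% of all genes, and at an adjusted p under 0.05, whatever the fold, there were 0 in edgeR (9.68% of all genes) and 2, Alpl and Slc20a1, in DESeq2 (16.3%). Slc20a1, Slc34a2 and Xpr1 lay above both controls in cKO, which held for 43.6% of all genes. The other 4, Alpl, Phospho1, Enpp1 and Slc20a2, were lower than in both, which held for 42.1% of all genes. For Enpp1 this was by position only, since its log2 ratio to HT was -0.0045 (counting interval -0.14 to 0.13). The split of the members between the directions is thus near that of the whole table. Slc34a2 alone was over 2-fold above both controls (19.1% of all genes were) and Phospho1 alone was over 2-fold below both (8.23%). The median log2 fold change of the 7 was -0.23, and that of all genes tested -0.01.

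**Figure D1:**
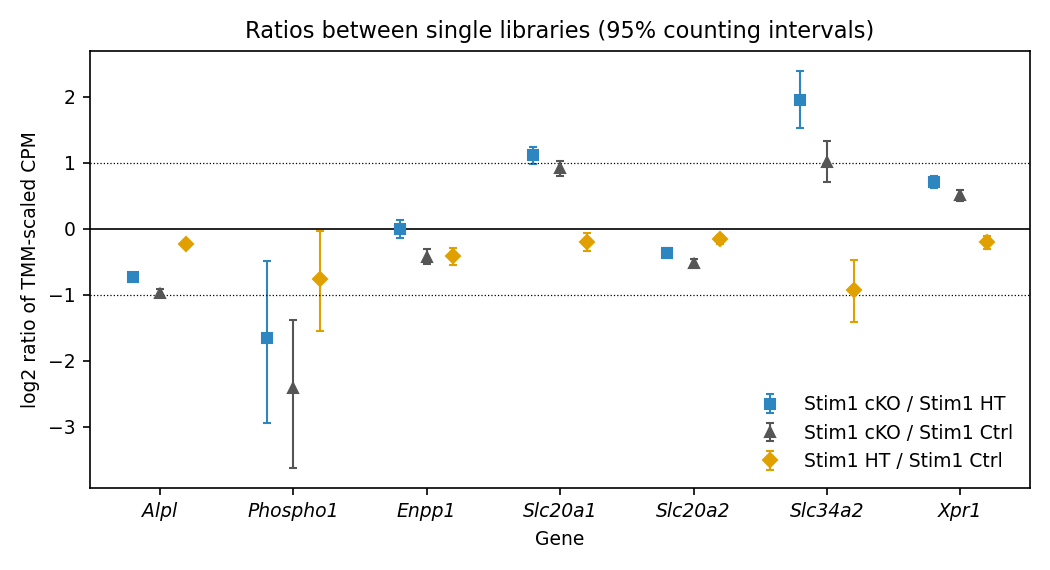
log2 ratio of TMM-scaled CPM between single libraries for each gene (vertical axis; genes along the horizontal axis), with squares for cKO over HT, triangles for cKO over Ctrl and diamonds for HT over Ctrl. Bars are 95% intervals for counting error only, dotted lines mark a 2-fold ratio, and for Slc20a1, Slc34a2 and Xpr1 both cKO ratios lie above 0 while all 7 diamonds lie below it.

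The enzymes that act on pyrophosphate and phosphomonoesters come first. Alpl had 4554 counts in cKO, 6164 in HT and 9480 in Ctrl, or 188, 313 and 368 CPM. The cKO value was the lowest and the controls lay nearer to each other than to it. Relative to the mean of the controls Alpl was 1.81-fold lower, or -0.86 on the log2 scale in edgeR (adjusted p 0.146) and -0.86 in DESeq2 (SE 0.317, adjusted p 0.0393). Alpl is also a marker of the stratum intermedium and papillary layer. Of the 8 markers of these layers 4 lay below both controls (Alpl itself, Notch1, Gja1 and Plin2), against 42.1% of all genes. Above both lay 2 (Slc5a8 and Cxcl14), against 43.6% of all genes. Slc5a8, the only gene of this list called by DESeq2, had 1077, 216 and 82 counts in cKO, HT and Ctrl. Its log2 fold change in edgeR, 2.66, was the largest of the list in either direction, and that of Cxcl14 was 0.06. The 7 markers other than Alpl together summed to 628 CPM in cKO, 807 in HT and 884 in Ctrl. Of this Gja1 alone made 369, 532 and 589. Whether Alpl moved with those layers was not tested. The gene lies on the minus strand of chromosome 4, 137741733 to 137796384 (GRCm38).

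Phospho1 was the member with the fewest reads, 9, 23 and 51 counts in cKO, HT and Ctrl, with exact 95% Poisson intervals of 4.12 to 17.1, 14.6 to 34.5 and 38.0 to 67.1, which cover counting error only. Its CPM were 0.372, 1.17 and 1.98, lowest in cKO, with log2 ratios of -1.65 to HT (counting interval -2.95 to -0.49) and of -2.41 to Ctrl (-3.62 to -1.38). This was the largest difference among the 7 genes, 4.24-fold lower than the mean of the controls. On the log2 scale this was -2.07 in edgeR (adjusted p 0.142) and -2.09 in DESeq2 (SE 1.49, adjusted p 0.382). Exons of Phospho1 (chromosome 11, 95824499 to 95832140, plus strand) overlap those of Abi3 on the other strand and of Zfp652 on the same strand, and Zfp652 alone had 1540 to 2563 counts a library, so reads of a gene at this level are uncertain. Smpd3, a sphingomyelinase that yields phosphocholine and was singled out after its values were seen, had 2887, 2597 and 3986 counts, so that Phospho1 had 0.00312 of the Smpd3 count in cKO, 0.00886 in HT and 0.0128 in Ctrl. Osteoblast and odontoblast markers, a list that holds Phospho1, lay below both controls for 9 of 12 genes and above both for 2, Dspp and Runx2. Dspp stood at 1263 CPM in cKO, 791 in HT and 792 in Ctrl. Without Phospho1 the list summed to 33760.4, 42661 and 65284 CPM. Of this Col1a1 made 21085, 22631 and 37254, and Col1a2 made 10122, 17285 and 25101. The part of these cells in the Phospho1 difference was not tested.

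Enpp1 differed least. It had 980, 800 and 1395 counts in cKO, HT and Ctrl, or 40.5, 40.6 and 54.2 CPM, so that cKO and HT were nearly equal and Ctrl stood above them. It was the only member for which the controls were not closer to each other than to cKO; that closeness held for 6 of 7 members and for 59.0% of all genes. The log2 fold change was -0.23 (adjusted p 0.607 in edgeR) and turned to 0.036 when libraries were scaled by total count alone, a scaling that raised the median of all genes by 0.26. Enpp1 lies on the minus strand of chromosome 10, 24637914 to 24712159. Ank, the pyrophosphate exporter (added after its values were seen), had 1773, 1812 and 3399 counts, a log2 fold change of -0.61 in edgeR (adjusted p 0.261).

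The balance between Alpl and Enpp1 can be read within a library, where depth and scaling cancel. There were 4.65 Alpl counts for each Enpp1 count in cKO (95% exact interval 4.34 to 4.98), 7.71 in HT (7.16 to 8.30) and 6.80 in Ctrl (6.42 to 7.19). cKO thus had the lowest ratio, 0.603 of that in HT and 0.684 of that in Ctrl. The controls themselves differed 1.13-fold. For Alpl against Ank the ratio was 2.57 in cKO, 3.40 in HT and 2.79 in Ctrl, so there the 2 controls differed by more than cKO and Ctrl did. These ratios were not tested between genotypes.

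**Figure D2:**
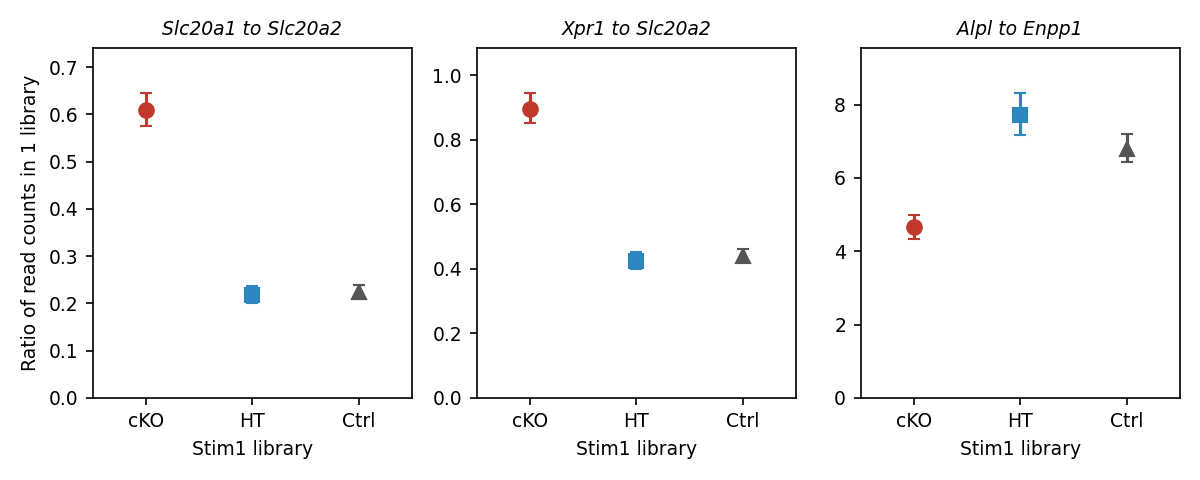
Ratio of read counts between 2 genes of the same library (vertical axes, from 0) for Slc20a1 to Slc20a2, Xpr1 to Slc20a2 and Alpl to Enpp1, by Stim1 library (horizontal axes). Bars are 95% exact intervals for counting error; the first pair stands at 0.608 in cKO against 0.218 and 0.224, the last at 4.65 against 7.71 and 6.80.

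Among the importers, Slc20a1 and Slc20a2 stood on opposite sides of the controls. Slc20a1 had 1916 counts in cKO, 721 in HT and 1081 in Ctrl, or 79.1, 36.6 and 42.0 CPM. cKO was well above both controls, 2.16-fold above HT and 1.88-fold above Ctrl, while the controls lay close together (HT over Ctrl -0.20 on the log2 scale, counting interval -0.34 to -0.06). In edgeR the log2 fold change was 1.01 (adjusted p 0.0624, the lowest of the 7 in that test), and in DESeq2 it was 1.00 (SE 0.367, adjusted p 0.0382). Slc20a1 lies on chromosome 2, 129198764 to 129211616, plus strand, where 9830144P21Rik and Gm4430 overlap its exons on the other strand with 3 to 6 and 65 to 134 counts.

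Slc20a2 had 3149, 3303 and 4818 counts in cKO, HT and Ctrl. Its CPM were 130, 168 and 187, lowest in cKO, with a log2 fold change of -0.45 in edgeR (adjusted p 0.325, and 0.373 in DESeq2). Slc20a2 lies on chromosome 8, 22476788 to 22569612, plus strand, and Smim19, which overlaps its exons on the other strand, had 406, 706 and 700 counts. Within each library, Slc20a1 had 0.608 of the Slc20a2 count in cKO (95% exact interval 0.575 to 0.644), 0.218 in HT (0.201 to 0.237) and 0.224 in Ctrl (0.210 to 0.240). The intervals of the controls overlapped, and that of cKO lay apart from both. The ratio in cKO was 2.79 times that in HT and 2.71 times that in Ctrl, while HT stood at 0.973 of Ctrl.

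Slc34a2 was the lowest importer per length of exon in every library. It had 261 counts in cKO (95% Poisson interval 230 to 295), 55 in HT (41.4 to 71.6) and 137 in Ctrl (115 to 162), or 10.8, 2.79 and 5.32 CPM. It was high in cKO, but the controls also differed from each other beyond counting error, with a log2 ratio of HT over Ctrl of -0.93 (counting interval -1.41 to -0.47). It was 3.86-fold above HT and 2.03-fold above Ctrl, or 1.41 on the log2 scale against both in edgeR (adjusted p 0.157) and 1.40 in DESeq2 (SE 0.758, adjusted p 0.216). Slc34a2 lies on chromosome 5, 53038081 to 53071664, plus strand. The gene is known from alveolar type 2 cells of the lung and from glands. Of 5 alveolar type 2 markers, 3 were listed (Sftpc, Napsa and Lamp3), and summed to 9.04, 13.2 and 2.45 CPM in cKO, HT and Ctrl. Their genes did not share an order, with Sftpc at 6.24, 2.74 and 0.117 CPM and Lamp3 at 0.289, 0.0507 and 0.0777 highest in cKO, and Napsa at 2.52, 10.4 and 2.25 highest in HT. Lamp3 had only 7, 1 and 2 counts and did not pass the filter on low counts, and Sftpc had 3 counts in Ctrl. Salivary gland markers summed to 358, 675 and 96.6 CPM, with Bhlha15, Aqp5, Muc19, Amy1 and Prol1 highest in cKO, Dcpp1, Dcpp2 and Bpifa2 highest in HT and Pip highest in Ctrl. Maturation ameloblast markers lay above both controls for 7 of 9 genes, with a median log2 fold change of 1.71, and summed to 1042, 514 and 336 CPM. The part of these cell types and of the lacrimal and orbital glands in the Slc34a2 difference was not tested.

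Of all importer counts, Slc20a2 held 59.1% in cKO (95% exact binomial interval 57.8 to 60.4), 81.0% in HT (79.7 to 82.2) and 79.8% in Ctrl (78.8 to 80.8). Slc20a1 held 36.0%, 17.7% and 17.9%. Slc34a2 held 4.90%, 1.35% and 2.27%. Divided by exon length the shares of Slc20a2 were 56.2%, 79.1% and 77.8%, so it led the importers in each of the 3 libraries, with a smaller share in cKO. The controls were near each other in the SLC20 shares.

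The exporter Xpr1 had 2822 counts in cKO, 1402 in HT and 2112 in Ctrl, or 117, 71.1 and 82.0 CPM. cKO was the highest, 1.64-fold above HT and 1.42-fold above Ctrl, or 0.61 on the log2 scale against both in edgeR (adjusted p 0.180, and 0.245 in DESeq2). Xpr1 lies on the minus strand of chromosome 1, 155275701 to 155417415. Against Slc20a2 it had 0.896 of the count in cKO, 0.424 in HT and 0.438 in Ctrl. Against the other SLC20 importer the difference was smaller, with 0.679 Slc20a1 counts for each Xpr1 count in cKO, 0.514 in HT and 0.512 in Ctrl. Kidins220, a known partner of Xpr1 that was added after its values were seen, had 4404, 2660 and 3991 counts, a log2 fold change of 0.33 in edgeR (adjusted p 0.453).

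Levels of different genes were compared as CPM per kilobase of exon. Alpl was the highest of the 7 in every library, at 46.6 in cKO, 77.6 in HT and 91.3 in Ctrl. Slc20a2 came next below it (20.9, 27.0 and 30.1) and Slc20a1 after that (14.2, 6.56 and 7.53). The gap between the SLC20 importers was thus narrower in cKO. Xpr1 stood at 6.52, 3.98 and 4.59 and Enpp1 at 3.95, 3.96 and 5.28, so that Xpr1 ranked above Enpp1 in cKO, could not be told from it in HT and ranked below it in Ctrl. This depends on the length used: with that of the longest transcript, Xpr1 was above Enpp1 in all 3 libraries. Slc34a2 (2.15, 0.557 and 1.06) and Phospho1 (0.183, 0.575 and 0.976) were lowest. These last 2 differed beyond counting error in cKO, where Phospho1 was lower, and not in the controls.

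**Figure D3:**
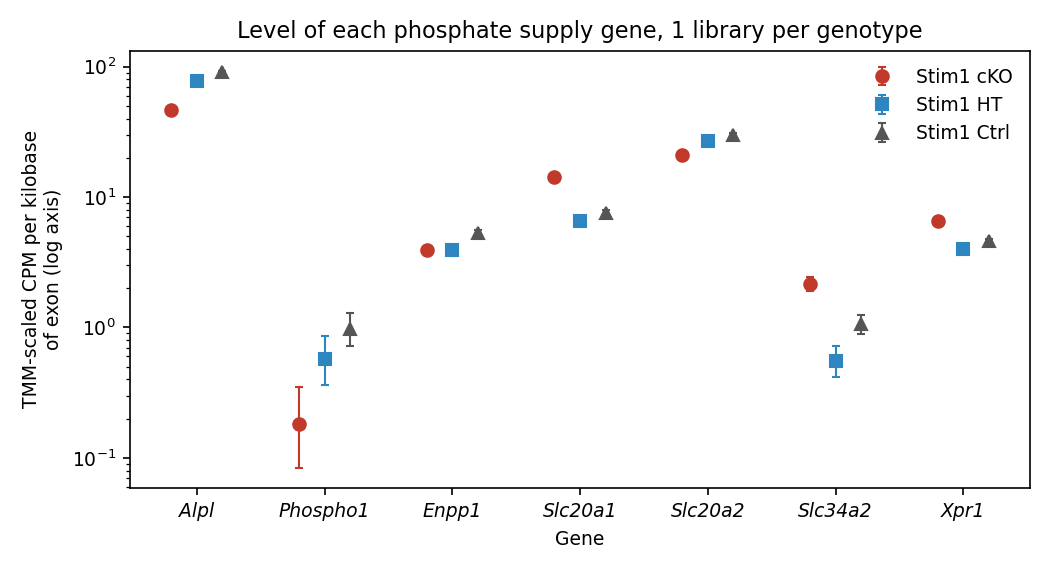
TMM-scaled CPM per kilobase of exon (vertical log axis) of each gene (horizontal axis) in cKO (circles), HT (squares) and Ctrl (triangles), 1 library each. Bars are exact 95% Poisson intervals for counting error, hidden by the symbol where short; Alpl runs from 46.6 to 91.3 and Phospho1 from 0.183 to 0.976.

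Between the controls, which differ in the Cre transgene and in 1 floxed Stim1 allele, all 7 genes were lower in HT than in Ctrl, as were 49.7% of all genes, and none of them by over 2-fold. The log2 ratios ran from -0.93 for Slc34a2 and -0.76 for Phospho1, the members with the fewest reads, to -0.16 for Slc20a2. Slc20a1 (-0.20), Xpr1 (-0.21) and Alpl (-0.24) came next after Slc20a2. No test was possible with 1 library per genotype. With TMM scaling, counting intervals kept every ratio below 0, with Phospho1 the closest to it at -1.54 to -0.03. The TMM factors (0.975 for HT and 0.911 for Ctrl) lower each ratio of HT to Ctrl. Intervals that end near 0 therefore depend on the scaling, and none were computed under another.

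The other genes of phosphate handling were read as 6 lists, in which edgeR called 0 genes in either direction; the first 2 of them hold the members. The counts of each list stand beside these shares of all genes tested: 43.6% above both controls, 42.1% below both, 31.9% with an unadjusted p under 0.05 in edgeR and 10.6% called by DESeq2. The pyrophosphate and phosphatase list, with 22 genes listed of 26, had 10 above both controls, 10 below both and 10 with an unadjusted p under 0.05, and its median log2 fold change was -0.04. DESeq2 called 3 of them. Acp5, the tartrate-resistant acid phosphatase of osteoclasts, had 2094, 8665 and 11471 counts in cKO, HT and Ctrl (log2 fold change -2.36, adjusted p 0.0258 in edgeR). Chka, which phosphorylates choline and so makes the substrate of Phospho1, had 2232, 644 and 629 (1.69, adjusted p 0.0308 in edgeR). Entpd5, a nucleoside diphosphatase named because DESeq2 called it and outside the naming rule, had 2151, 726 and 875 (1.33, adjusted p 0.0357 in edgeR). A link between the Chka and Phospho1 differences was not tested, and Phospho1 rests on 9 to 51 counts. Entpd2, an ectonucleotidase, had 129, 213 and 430 (-1.37, adjusted p 0.126 in edgeR).

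Phosphate transport genes, with 10 listed of 16, lay above both controls in 6 cases and below both in 4, with 4 at an unadjusted p under 0.05 and a median log2 fold change of 0.26. DESeq2 called 2 of them, both mitochondrial ATP-magnesium/phosphate carriers, in opposite directions. Slc25a23 had 1713, 618 and 720 counts in cKO, HT and Ctrl (log2 fold change 1.25, adjusted p 0.0392 in edgeR), and Slc25a24 had 660, 1124 and 1925 (-1.27, adjusted p 0.0604 in edgeR). These carriers, like the SLC20 importers, stood on opposite sides of the controls. Of the 12 inositol pyrophosphate enzymes, which make or break the ligand sensed by Xpr1, 7 lay above both controls and 4 below both, 2 had an unadjusted p under 0.05, DESeq2 called 0 and the median was 0.16. Ppip5k1 had 1337, 439 and 644 counts (1.22, adjusted p 0.0409 in edgeR), Ip6k3 had 141, 290 and 679 (-1.82, adjusted p 0.0802) and Nudt11 had 196, 114 and 106 (0.71, adjusted p 0.358). The kinase Ppip5k1 and the exporter Xpr1 were both highest in cKO, as were 43.6% of all genes, and a link between them was not tested.

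Zinc exporters that load alkaline phosphatase, or belong to the same family, formed a list of 5. Slc30a4, Slc30a5 and Slc30a7 had log2 fold changes of -0.43, -0.56 and -0.56, Slc30a1 had -0.17 and Slc30a6 had -0.07. Of the 5, 4 lay below both controls, 0 had an unadjusted p under 0.05 and DESeq2 called 0, and Slc30a1 and Slc30a6 turned positive, at 0.093 and 0.18, when scaled by total count alone. Phosphate hormones and receptors lay below both controls for 13 of 19 genes tested and above both for 6, with 8 at an unadjusted p under 0.05 and a median of -0.54. DESeq2 called 4 of these, all lower, where it called 10.6% of all genes in either direction. Mepe, a bone and dentin matrix protein, had 31, 228 and 361 counts in cKO, HT and Ctrl (-3.32, adjusted p 0.0281 in edgeR), Fgfr4 had 104, 429 and 690 (-2.50, adjusted p 0.0266), Dmp1 had 2019, 4395 and 7486 (-1.62, adjusted p 0.0496) and the secreted-protein kinase Fam20c, named for the DESeq2 call, had 772, 1505 and 1906 (-1.24, adjusted p 0.0474). Mepe and Dmp1 are also in the osteoblast and odontoblast list.

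Matrix vesicle proteins and mineralization inhibitors lay below both controls for 7 of 9 genes and above both for 2, with 5 at an unadjusted p under 0.05, 3 called by DESeq2 and a median of -0.71. Spp1 (osteopontin) had 6071, 20530 and 45794 counts in cKO, HT and Ctrl (log2 fold change -2.49, adjusted p 0.0481 in edgeR), and annexin gene Anxa6 had 3974, 9158 and 12955 (-1.56, adjusted p 0.0513). Fetub, a fetuin, went the other way, with 2084, 324 and 295 (2.63, adjusted p 0.0180). The lists, like the members, were chosen with earlier results of these data known, so their counts describe these libraries only.

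**Figure D4:**
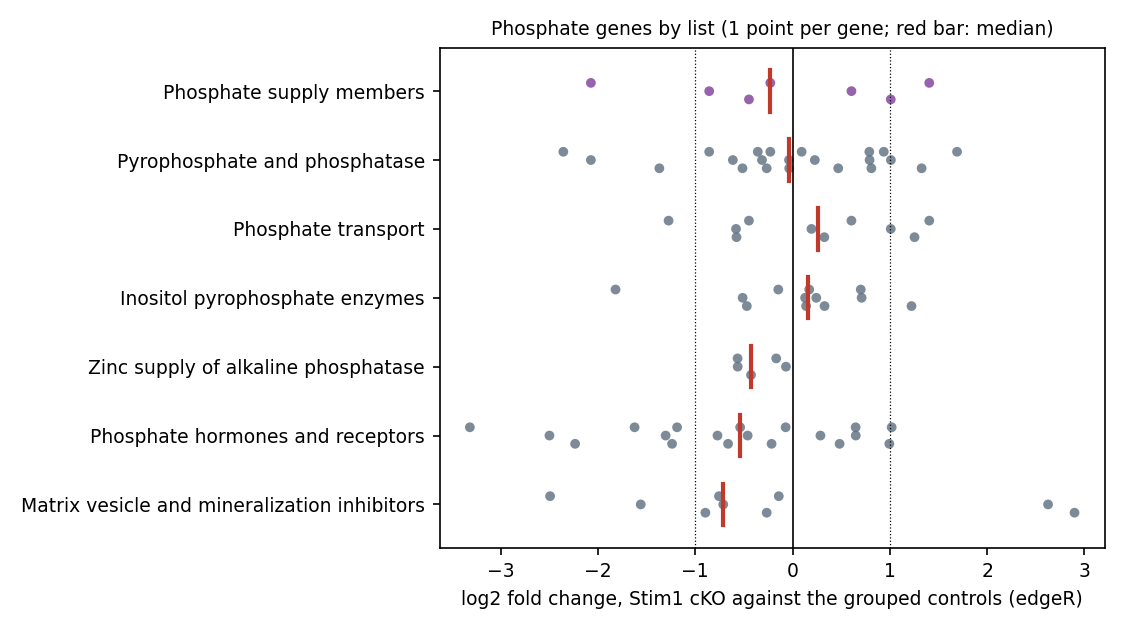
log2 fold change of cKO against the grouped controls in edgeR (horizontal axis) for each gene of the 7 members and of the 6 phosphate lists (rows), 1 point per gene. Red bars are medians, from -0.71 for matrix vesicle proteins and mineralization inhibitors to 0.26 for phosphate transport, and dotted lines mark 2-fold.

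For each member the most similar pattern over the 3 libraries was sought among 166 or 167 genes of the phosphate and marker lists with a mean of at least 50 counts, by Euclidean distance between centred log2 CPM. It was Nucb1, a calcium-binding protein of the Golgi, for Alpl (distance 0.0393), Jag1, a Notch ligand, for Enpp1 (0.0504) and Dcn, the proteoglycan decorin, for Slc20a2 (0.0237). For Slc20a1 it was Nt5e (0.100), the ectonucleotidase that frees phosphate from AMP. For Xpr1 it was Fgfr3 (0.115), a fibroblast growth factor receptor, and for Phospho1 Mmp8 (0.0583), a neutrophil collagenase. The nearest to Slc34a2 was Bfsp1 (0.561), a lens protein, at a greater distance than for any other member. With 3 libraries such likeness is a description.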

How the data were processed

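Total RNA of whole incisor enamel organs was sequenced in 3 libraries, Stim1 cKO, Stim1 HT and Stim1 Ctrl, grouped by the labels. The authors trimmed reads, aligned them with STAR and deposited whole-number read counts per gene symbol, with no normalization; the genome build, annotation, counting tool and strand setting are not given in the sources used here. The labels name a SMARTER kit and the methods a NEBNext directional kit, so antisense neighbours could not be separated. Only genes with at least 1 count in every library are listed.

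Counts were tested here with edgeR 4.0.16 (filterByExpr, TMM, quasi-likelihood, Benjamini-Hochberg) in R 4.3.3, with Stim1 cKO against the grouped controls. This leaves 1 residual degree of freedom, beside 4.15 prior degrees of freedom from all genes. The p-values thus rest on the spread between the controls, largely as pooled over genes, and the controls differ in genotype. A gene was called at adjusted p under 0.01 and over 2-fold, as in the study. DESeq2 1.42.0 (used by the authors too), other scalings, filters, thresholds and leaving out a control were alternatives. The scripts were tested on simulated data. Intervals are 95% and cover counting error only, since reads are not independent molecules. Gene positions and exon lengths came from GENCODE M21 (GRCm38), in which 20712 of 20935 symbols were found, and may not match the annotation of the counts. Promoters came from RefSeq.

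Named were the members, Stim1, for each phosphate list the 3 genes with the largest absolute log2 fold change and a mean of at least 50 counts (all genes of a list of 5), and for each member its nearest gene; exceptions are marked. Members and lists were chosen with earlier results of these data known. No set test was run.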

Additional observations from a re-analysis of the deposited data

How the results depend on the processing

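None of the 7 phosphate supply genes was called under any alternative run, and 6 of them kept the direction of the log2 fold change in each: Alpl from -0.98 to -0.60, Phospho1 from -2.43 to -1.65, Slc20a1 from 0.90 to 1.27, Slc20a2 from -0.54 to -0.19, Slc34a2 from 1.00 to 1.95 and Xpr1 from 0.49 to 0.87. Phospho1 did not enter the filter at a mean of 50 counts. Enpp1 ran from -0.44 to 0.036, the latter with library size only, which also gave 0.093 for Slc30a1 and 0.18 for Slc30a6. Slc30a6 ran from -0.23 without Stim1 Ctrl to 0.093 without Stim1 HT, and turned to 0.054 with upper-quartile factors and 0.038 at a mean of at least 50 counts. Library size only moved the median of all genes by 0.26 and upper-quartile factors by 0.13. Adjusted p ran from 0.0359 to 0.0658 for Slc20a1 and from 0.0393 to 0.229 for Alpl.

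The 14 genes called over the whole table became 1987 with DESeq2, 1811 at adjusted p under 0.05, 907 without the low-count filter, 138 with upper-quartile factors, 50 with RLE size factors and 6 with library size only or at a mean of at least 50 counts; the cause was not tested. Of the lists, where edgeR called 0, pyrophosphate and phosphatase had 3 calls with DESeq2, 2 without the filter and 3 at adjusted p under 0.05. Phosphate transport had 2 with DESeq2 and 1 at adjusted p under 0.05, and inositol pyrophosphate enzymes had 1 at adjusted p under 0.05. Phosphate hormones and receptors had 4, 2 and 4 in the same 3 settings, and matrix vesicle and mineralization inhibitors 3, 1 and 2. The 6400 genes past 2-fold became 4133 at a mean of at least 50 counts, by fewer genes tested, and 6172 to 7102 when 1 control was left out. Members past 2-fold were then 2 to 3, against 3 with both controls. Leaving out a control leaves no residual degrees of freedom, so calls could not be tested there. No paired analysis was possible because each genotype has 1 library. Depth limits Phospho1 most, at 9 to 51 counts a library.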
